A study of Mus musculus with 27 samples.

Results

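The 3 superoxide dismutases (Sod1, Sod2 and Sod3), the 6 peroxiredoxins (Prdx1 to Prdx6) and catalase (Cat) are the enzymes treated here. These 10 genes were chosen by name from the 54532 gene rows of the count table, and all 10 were found and passed the filter on low counts in every comparison. RNA of mouse thyroid areas cut out by laser capture was measured by 3′ end sequencing in 27 libraries of 3 groups. NCT was normal control thyroid of 9 mice that were not exposed to radiation, NT was normal thyroid of 9 exposed mice that had histologic abnormalities nearby, and PL was proliferative lesions of the same 9 exposed mice. Each group held 6 females and 3 males, and no genotype, transgene or agent other than the radiation was named. The sources used here do not give strain, age, radiation type, dose or the time from exposure to sampling. NT came from glands that already carried a lesion, so exposure and the nearness of a lesion cannot be told apart in it.

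Superoxide dismutases convert superoxide into hydrogen peroxide and oxygen, and peroxiredoxins and catalase remove the hydrogen peroxide. The follicular cells of the thyroid make hydrogen peroxide on purpose, because it is needed to iodinate thyroglobulin, so these enzymes work beside a steady source of their substrate. The enzymes differ by place: Sod1, Prdx1, Prdx2 and Prdx6 are mainly cytosolic, Sod2 and Prdx3 are mitochondrial, Sod3 is secreted, Prdx4 lies in the endoplasmic reticulum, catalase in peroxisomes, and Prdx5 in mitochondria, peroxisomes and cytosol.

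Peroxiredoxins act through 1 peroxidatic cysteine, which the peroxide oxidizes. The coding sequence around that cysteine is shown because it is what makes these 6 genes a family. Each line gives the cysteine codon in capitals with 4 codons on either side, 5′ to 3′, from the GENCODE M21 transcripts of the build GRCm38. The codon is number 52 of 199 in Prdx1, 51 of 198 in Prdx2, 109 of 257 in Prdx3, 127 of 274 in Prdx4, 96 of 210 in Prdx5 and 47 of 224 in Prdx6, counted from the start codon.
Prdx1: tttacttttgtgTGTcccacggagatc
Prdx2: ttcacttttgttTGCcccacggagatc
Prdx3: ttcacatttgtgTGTcctacagaaatt
Prdx4: ttcacctttgtgTGTccaactgaaatc
Prdx5: tttacacctggcTGTtctaagacccac
Prdx6: tttaccccagtgTGCaccacagaactt

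Prdx1 to Prdx4 are typical 2-Cys enzymes, in which a second cysteine of a partner subunit closes a disulfide that thioredoxin reduces. Prdx5 closes that disulfide within 1 chain. Prdx6 has a single catalytic cysteine, is reduced through glutathione and also has phospholipase activity.

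Sod3 differs from the other dismutases by leaving the cell and binding to heparan sulfate on cell surfaces and in the matrix through a basic tail. The last 20 codons of its coding sequence are shown for that tail, with the 8 codons for lysine or arginine in capitals.
Sod3: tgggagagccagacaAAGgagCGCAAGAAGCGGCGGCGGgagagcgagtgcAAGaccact

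The 10 genes lie on 9 chromosomes of GRCm38 and share no cluster. Sod1 (ENSMUSG00000022982.10) lies on chromosome 16 at 90220754 to 90226329, Sod2 (ENSMUSG00000006818.5) on chromosome 17 at 13006846 to 13040063 and Sod3 (ENSMUSG00000072941.5) on chromosome 5 at 52363791 to 52371418, all on the plus strand. Cat (ENSMUSG00000027187.10) lies on chromosome 2 at 103453849 to 103485160 on the minus strand. On the plus strand lie Prdx1 (ENSMUSG00000028691.12, chromosome 4 at 116685544 to 116700822) and Prdx2 (ENSMUSG00000005161.15, chromosome 8 at 84969587 to 84974834). On the minus strand lie Prdx3 (ENSMUSG00000024997.7, chromosome 19 at 60864051 to 60874556), Prdx4 (ENSMUSG00000025289.15, chromosome X at 155323918 to 155340754), Prdx5 (ENSMUSG00000024953.17, chromosome 19 at 6906697 to 6910106) and Prdx6 (ENSMUSG00000026701.15, chromosome 1 at 161240112 to 161251219). The counts of Prdx2 are uncertain, because 122 of its last 300 exon bases overlap exons of Junb on the opposite strand and the sources used here do not give the strand setting of the counting. Junb itself had counts equal to 51.9% of those of Prdx2. Prdx5 shares 409 exon bases with Trmt112 on the opposite strand, none of them among its last 300, and Trmt112 had counts equal to 50.8% of those of Prdx5. Sod2 is uncertain as well, since the last 300 bases of its longest transcript matched 280 other genes at 90% identity or more over at least 100 bases. Sod1 has 2 such matches, both processed pseudogenes, with counts equal to 0.211% of its own.

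Libraries held 2923851 to 14148601 counts, with medians of 4622595 in NCT, 7220957 in NT and 6479022 in PL. The 10 genes together took 0.183% to 0.288% of counts in NCT libraries, 0.177% to 0.339% in NT and 0.232% to 0.367% in PL. The lowest count of any of them in a library was 81, for Prdx4. Tissue other than thyroid follicles was present: Pth, the parathyroid hormone gene, was at 18050 and 25710 CPM (counts scaled to a common library size) in the NT libraries of mice 7 and 9, at 27400 CPM in the PL library of mouse 2, and at 4485 and 2409 CPM in the NCT libraries 5 and 8. The NCT library 9 held 9792 CPM of Lipf, which codes for gastric lipase. The genes of 10 thyroid follicular markers, among them Tg and Tshr, summed to 27570 to 62770 in NCT, 13490 to 43020 in NT and 12550 to 36720 CPM in PL. Most of this sum was Tg, the thyroglobulin gene, with a mean of 39389 in NCT and 23310 CPM in PL. Gene by gene the list went the other way: 9 of 10 markers had a positive log2 fold change in PL against NT (median 0.36, 1 called higher and 0 lower) and in PL against NCT (median 0.44, 3 called higher and Tg called lower). In such captured areas, fewer cells of a type and less RNA per cell cannot be told apart.

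The comparison of PL with NT asked how the lesions differed from the normal tissue of the same gland. Sod3, Prdx4, Prdx3 and Prdx1 were higher in the lesions, by 3.10-, 1.97-, 1.61- and 1.40-fold, and Prdx6 was lower, at 0.623 of its NT level. Sod1, Sod2, Cat, Prdx2 and Prdx5 did not pass the test. The 5 calls were made with edgeR's quasi-likelihood test with the mouse as a block, at an adjusted p below 0.05 over all 14461 genes tested. Among those genes 3.08% were called, 1.76% as higher and 1.31% as lower, against 4 of 10 higher and 1 of 10 lower here. The median log2 fold change of the 10 genes was 0.05, and 0.0025 over all genes tested.

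**Figure D1:**
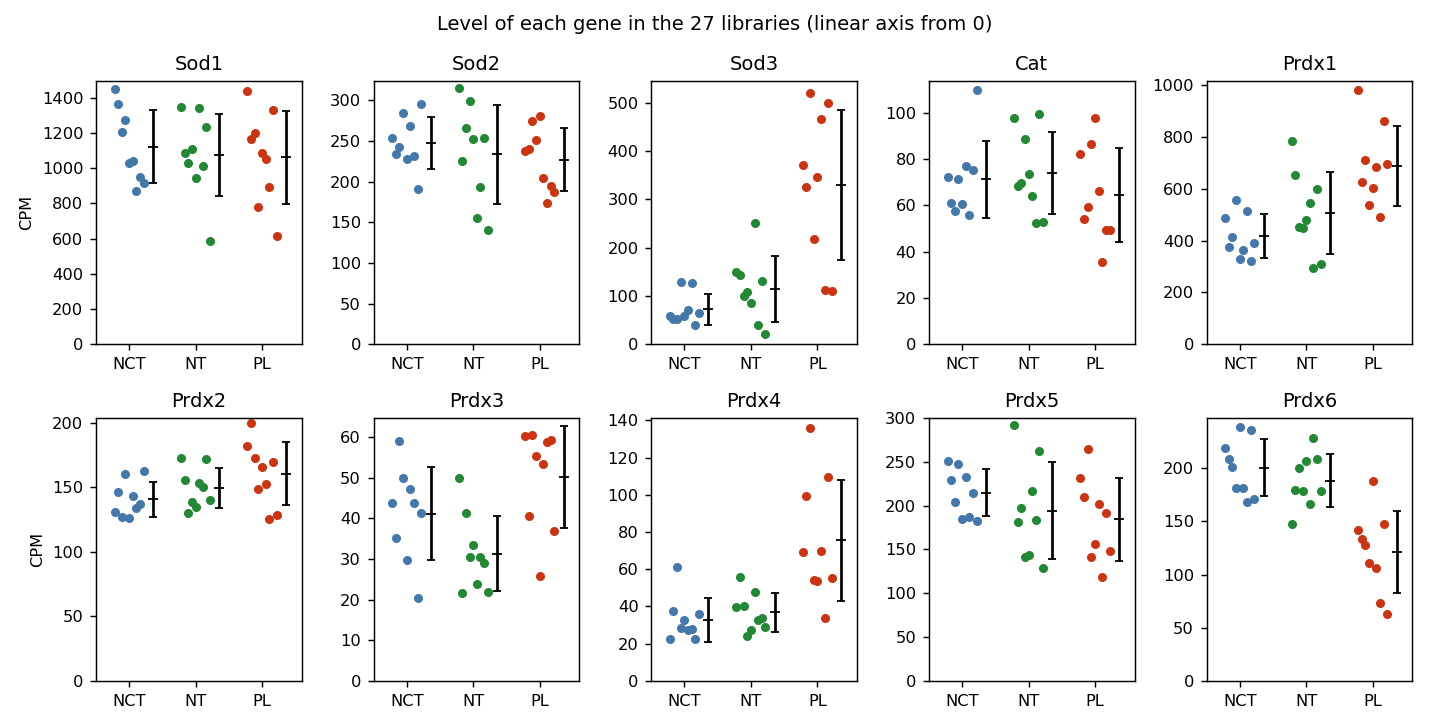
Level of each of the 10 genes in every library, in CPM on a linear axis from 0, by group (NCT, NT, PL; 9 libraries each); the bar beside each group is the mean ± SD. Sod3 sits at 110 to 520 CPM in PL and at 20.7 to 252 CPM in NT, while the ranges of Sod1 and Sod2 lie over each other in the 3 groups.

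Sod3, the secreted dismutase, had the largest fold change of the 10. Its lowest, median and highest levels were 39.0, 59.1 and 128 CPM in NCT, 20.7, 108 and 252 CPM in NT, and 110, 346 and 520 CPM in PL. The PL libraries of mice 7, 9 and 4, at 112, 110 and 217 CPM, were the lowest and lay within the NT range, and the other PL libraries lay above it. Mice 7 and 9 also had low NT libraries, at 38.9 and 20.7 CPM, which were the ones with high Pth. Within each mouse the lesion was higher, in 9 of 9 mice, with differences of log2 CPM from 0.89 in mouse 6 to 2.39 in mouse 9 and a median of 1.51. The fitted log2 fold change was 1.63 (SE 0.17, adjusted p = 0.00142, edgeR). Without mice 2, 7 and 9, which had high Pth in NT or PL, it was 1.59 (adjusted p = 0.0157).

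Sod1, the copper and zinc dismutase of the cytosol, was the most abundant of the 10 in each group by mean CPM. It had 1123 ± 208 in NCT, 1078 ± 233 in NT and 1063 ± 264 CPM in PL (mean ± SD, n = 9 each). The log2 fold change in PL against NT was -0.02 (SE 0.10, adjusted p = 0.946), with 6 of 9 mice higher in the lesion. Sod2, the manganese dismutase of mitochondria, was at 248 ± 31.8, 233 ± 60.5 and 227 ± 38.5 CPM in the same order. Its log2 fold change was -0.0024 (SE 0.11, adjusted p = 0.993), with 5 of 9 mice higher. For both genes the difference was smaller than its error, and the mice were split in direction.

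The make-up of the dismutase counts moved with Sod3. Since a 3′ end library gives about 1 fragment per transcript, CPM was not divided by gene length, and shares within a family are shares of 3′ end counts. Sod3 made up 3.15% to 10.2% of the dismutase counts in NCT libraries (median 4.45%), 2.76% to 14.4% in NT (median 7.14%) and 9.45% to 27% in PL (median 18.8%). Sod1 had medians of 78.2%, 74.7% and 65.7%. By mean level Sod3 ranked below Prdx2 in NCT and NT, and in PL it ranked above Sod2, which it exceeded in 6 of 9 libraries.

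**Figure D2:**
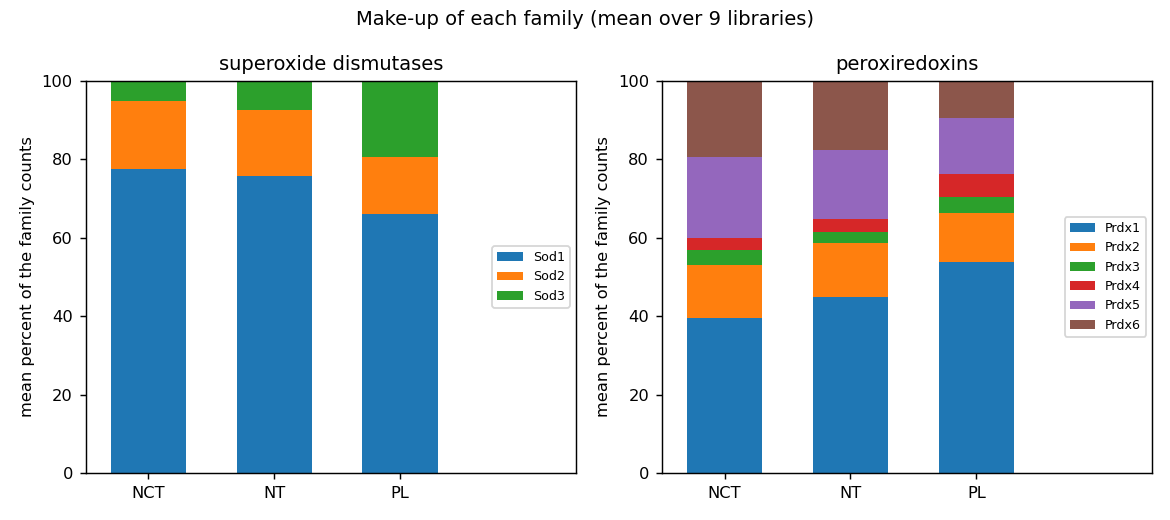
Mean percent of the counts of each family over 9 libraries per group, for the 3 superoxide dismutases (left) and the 6 peroxiredoxins (right), on axes from 0 to 100. The Sod3 part of the left bars is larger in PL, and in the right bars the Prdx1 and Prdx4 parts are larger and the Prdx6 part smaller in PL.

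Catalase, the heme enzyme of peroxisomes, was at 71.2 ± 16.6 in NCT, 74.1 ± 17.6 in NT and 64.5 ± 20.4 CPM in PL. It was lower in the lesion in 7 of 9 mice, most in mouse 8, from 99.2 to 49.4 CPM, and higher in 2. The log2 fold change of -0.22 (SE 0.13) had an adjusted p of 0.415. The 12 tested genes of a peroxisome list, which holds import receptors, fission factors and enzymes of fatty acid oxidation, had 0 called in either direction. Amacr, a racemase of branched fatty acids, had the smallest p of them with a log2 fold change of 0.94 (adjusted p = 0.113).

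Prdx4 is the peroxiredoxin of the endoplasmic reticulum, where it uses peroxide to form disulfides in proteins. Its levels were 22.3, 28.3 and 61.0 CPM (lowest, median, highest) in NCT, 24.3, 33.8 and 55.9 CPM in NT, and 33.6, 69.4 and 136 CPM in PL. The lesions of mice 3, 8 and 2 were high, at 136, 109 and 99.4 CPM. Those of mice 7, 5, 4 and 9, at 33.6, 53.7, 54.1 and 55.2 CPM, lay within the NT range, so that the groups overlapped. Every mouse had a higher value in the lesion, from a difference of 0.03 log2 CPM in mouse 7 to 1.75 in mouse 3. The fitted log2 fold change was 0.98 (SE 0.16, adjusted p = 0.0085). Sod3 and Prdx4 were thus the 2 of 10 that were higher in 9 of 9 mice, against 1.69% of all genes tested, and both kept their calls when any single mouse was left out.

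Prdx3, which clears hydrogen peroxide in the mitochondrial matrix, was the least abundant of the 10 in NT and PL by mean CPM. It ran from 21.7 through a median of 30.4 to 49.8 CPM in NT and from 25.9 through 55.4 to 60.4 CPM in PL. The lesion was higher in 8 of 9 mice, and mouse 5 went the other way, with 33.5 CPM in NT and 25.9 CPM in PL. The log2 fold change was 0.69 (SE 0.15, adjusted p = 0.0267). Leaving out any 1 of mice 2, 3, 4, 7 or 8 ended the call, with adjusted p-values of 0.0542 to 0.0775 and values of 0.64 to 0.70.

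Prdx1, an abundant cytosolic peroxidase, ran from 293 through a median of 478 to 786 CPM in NT and from 489 through 684 to 981 CPM in PL. The lesion was higher in 8 of 9 mice. In mouse 2 the 2 libraries were nearly level, at 651 CPM in NT and 628 CPM in PL, and mouse 9 had the widest gap, from 309 to 697 CPM. The log2 fold change was 0.48 (SE 0.11, adjusted p = 0.0343). The call was lost without any 1 of mice 1, 3, 4, 7, 8 or 9 (values of 0.40 to 0.51, adjusted p-values of 0.0508 to 0.0877), and also without the mouse block (0.45, adjusted p = 0.174).

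Prdx6, the 1-Cys enzyme, was the one that fell. It ran from 148 through a median of 179 to 229 CPM in NT and from 62.7 through 128 to 188 CPM in PL. The lesions of mice 9 and 7 were the lowest, at 62.7 and 72.9 CPM. The lesion of mouse 5, at 188 CPM, lay inside the NT range, and that of mouse 8, at 147.9 CPM, just above its lowest value of 147.7 CPM. The lesion was lower in 9 of 9 mice, as for 1.85% of all genes tested, by between 0.06 and 1.64 log2 CPM. The log2 fold change was -0.68 (SE 0.16, adjusted p = 0.0344). The call ended without any 1 of mice 2, 3, 4, 6, 7, 8 or 9 (values of -0.72 to -0.56, adjusted p-values of 0.0520 to 0.0785).

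Markers of airway and squamous epithelium fell beside Prdx6. Of 6 tested genes of that list 3 were called lower and 0 higher. The 7 listed genes summed to 337 to 4614 in NCT, 112 to 6203 in NT and 26.4 to 440 CPM in PL, and none of them was at 0 in every library of a group. Bpifa1, a secreted airway protein that made up much of that sum, exceeded 5000 CPM in the NT libraries of 3 mice (7, 8 and 9). Without those 3 mice Prdx6 had a log2 fold change of -0.42 (adjusted p = 0.176), Prdx1 of 0.32 (0.268) and Prdx3 of 0.58 (0.243). Sod3, at 1.48 (0.0296), and Prdx4, at 1.03 (0.0352), remained called. Over all genes that fit, which had fewer mice, called 46, against 445 with every mouse. Mice 7 and 9 were also those with high Pth in NT, so the loss of calls cannot be assigned to airway tissue. C cell markers, for the calcitonin-producing cells, were also lower in PL, with 5 of 7 tested genes called lower and 0 higher. The 1 C cell gene with a positive log2 fold change was at 1.95. The 8 listed C cell genes summed to 1324 to 8472 in NCT, 440 to 16760 in NT and 79.5 to 18270 CPM in PL, with no gene at 0 throughout a group. Lists for parathyroid, adipocyte, red blood cell, smooth muscle and pericyte, fibroblast, endothelial, macrophage and skeletal muscle genes also had negative median log2 fold changes. These medians of PL against NT ran from -1.26 (parathyroid) to -0.332 (macrophage). Only the smooth muscle and pericyte list held a called gene, 1 lower, and the only gene with a positive value. The part of C cells and of these other cell types in the changes of the 5 enzymes was not tested.

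**Figure D3:**
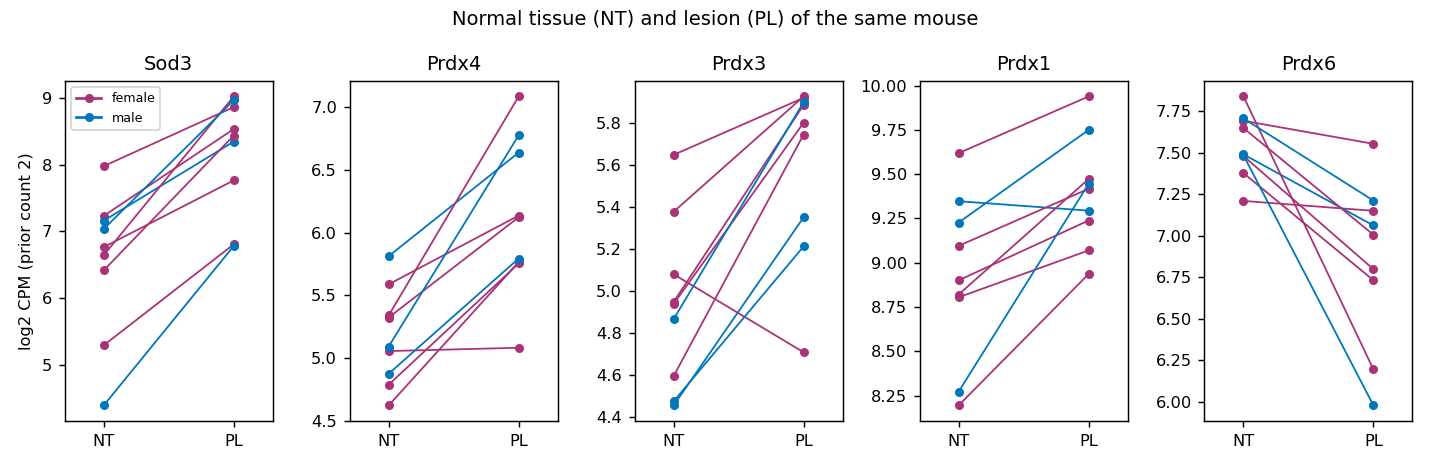
Log2 CPM (prior count 2) of the 5 called genes in the normal tissue (NT) and lesion (PL) of each of the 9 mice, joined by a line per mouse and coloured by sex. Sod3 and Prdx4 go up in 9 of 9 mice, Prdx3 and Prdx1 in 8 of 9, and Prdx6 goes down in 9 of 9.

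Prdx2, a cytosolic enzyme known from red blood cells, and Prdx5 did not pass. Prdx2 was at 149 ± 15.3 CPM in NT and 160 ± 24.4 CPM in PL, with a log2 fold change of 0.10 (SE 0.097, adjusted p = 0.642). Prdx5 was at 194 ± 55.3 and 185 ± 47.3 CPM, with a log2 fold change of -0.06 (SE 0.12, adjusted p = 0.854). Mice were split, with 5 of 9 higher for Prdx2 and 4 of 9 for Prdx5. The make-up of the peroxiredoxin counts differed in its medians: Prdx1 had a median of 46.6% of them in NT and 53.9% in PL, Prdx4 3.59% and 5.17%, and Prdx6 18.6% and 8.72%.

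**Figure D4:**
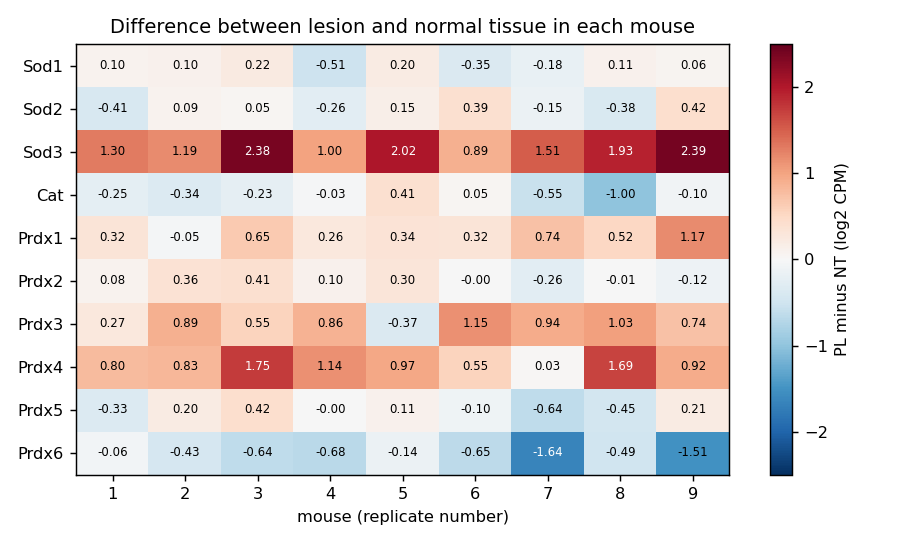
Difference of log2 CPM (prior count 2) between the lesion and the normal tissue in each of the 9 mice, for the 10 genes, with red for higher and blue for lower in the lesion. The Sod3 row is positive throughout, from 0.89 to 2.39, and the Prdx6 row is negative throughout, from -0.06 to -1.64.

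The mouse with the largest difference varied between the 5 genes. Mouse 9 had the largest differences for Sod3 and Prdx1, at 2.39 and 1.17, mouse 3 for Prdx4, at 1.75, mouse 6 for Prdx3, at 1.15, and mouse 7 for Prdx6, at -1.64. The NT libraries of mice 9 and 7 were those high in Pth, at 25710 and 18050 CPM, against 47.6 and 54.7 CPM in their lesions. The part of that tissue in these differences was not tested. Whether the paired change differed between females and males was tested as an interaction, and 0 of 14461 genes passed (401 had an unadjusted p below 0.05, edgeR). The adjusted p was 1 for each of the 10 genes. For Sod3 the change in males exceeded that in females by 0.32 (SE 0.35).

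Some calls were lost in fits on part of the mice. In the 6 females alone Sod3 passed at 1.53 (adjusted p = 0.0385), and Prdx4, Prdx3, Prdx1 and Prdx6 did not, at 0.89, 0.58, 0.45 and -0.62 (adjusted p-values of 0.129 to 0.288). Without mice 2, 7 and 9, Prdx4 passed at 1.16 (adjusted p = 0.0201), and Prdx3, Prdx1 and Prdx6 did not, at 0.59, 0.40 and -0.44 (adjusted p-values of 0.124 to 0.220). Without the mouse block Sod3 was at 1.54 with an adjusted p of 0.0527. Over all genes, 6 were called in females alone, 95 without mice 2, 7 and 9, and 402 without the block, against 445 in the main fit.

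The comparison of NT with NCT asked how normal thyroid of exposed mice that also carried lesions differed from thyroid of non-exposed mice. Of the 10 genes 0 passed, and 4 of 14447 genes did (0.0277%), with 1673 at an unadjusted p below 0.05 (edgeR). DESeq2's Wald test called 134 genes and again 0 of the 10. The ranges of NT and NCT overlapped for each enzyme.

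Among the dismutases Sod3 had the largest estimate, 0.65 (SE 0.37, adjusted p = 0.522), with 7 of 9 NT libraries above the NCT median. Its NT values spread from 20.7 to 252 CPM, around an NCT range of 39.0 to 128 CPM. Sod1 was at -0.07 (SE 0.14, adjusted p = 0.881) and Sod2 at -0.10 (SE 0.13, adjusted p = 0.823). Cat was at 0.04 (SE 0.15, adjusted p = 0.938).

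Prdx3 had the smallest unadjusted p of the 10, 0.0367, with a log2 fold change of -0.40 (SE 0.18) and an adjusted p of 0.398. Its NCT levels ran from 20.4 through a median of 43.8 to 59.0 CPM, and 1 of 9 NT libraries lay above that median. Prdx1 was at 0.27 (SE 0.16, adjusted p = 0.532), with 7 of 9 NT libraries above the NCT median. Prdx2, Prdx4, Prdx5 and Prdx6 had log2 fold changes of 0.08, 0.15, -0.16 and -0.10, with adjusted p-values of 0.684 to 0.795. Adipocyte markers had lower values in NT: 10 of 10 tested genes had a negative log2 fold change, 0 were called, and their sum was 790 to 6511 CPM in NCT and 419 to 1429 CPM in NT.

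The comparison of PL with NCT set the lesions against thyroid without exposure. It shares the PL libraries with the paired comparison, so the values are given side by side and do not count as a second observation. Sod3, Prdx4 and Prdx1 were higher than in NCT, by 4.54-, 2.29- and 1.64-fold, and Prdx6 was lower, at 0.598 of the NCT level. These 4 of 10 compare with 10.1% of 14234 genes called, 5.45% higher and 4.62% lower (edgeR). The median of the 10 log2 fold changes was 0.04, and 0.00383 over all genes tested.

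Sod3 had a log2 fold change of 2.18 (SE 0.33, adjusted p = 0.000412), with 9 of 9 PL libraries above the NCT median of 59.1 CPM. The 2 lowest PL libraries, at 110 and 112 CPM, lay below the highest NCT values of 126 and 128 CPM. Prdx4 was at 1.19 (SE 0.24, adjusted p = 0.00291) and Prdx1 at 0.71 (SE 0.14, adjusted p = 0.00183), also with 9 of 9 libraries above the NCT median. Prdx1 ran from 320 through a median of 392 to 557 CPM in NCT, and only the PL libraries of mice 7 and 4, at 489 and 537 CPM, lay in that range. Prdx6 was at -0.74 (SE 0.16, adjusted p = 0.00447), with 0 of 9 PL libraries above the NCT median of 201 CPM.

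Prdx3 did not pass against NCT, with a log2 fold change of 0.27 (SE 0.19, adjusted p = 0.402). Its mean was 41.1 ± 11.4 in NCT, 31.3 ± 9.28 in NT and 50.1 ± 12.6 CPM in PL. The PL libraries of mice 1, 3 and 8, at 60.2, 60.4 and 59.3 CPM, lay above the highest NCT value of 59.0 CPM. Whether the contrasts with NT and NCT differ was not tested. Sod1, Sod2, Cat, Prdx2 and Prdx5 were at -0.09, -0.14, -0.15, 0.18 and -0.23, with adjusted p-values of 0.307 to 0.777.

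Adipocyte markers had lower values in this comparison too, with 10 of 10 negative, 0 called and a sum of 126 to 1822 CPM in PL. With a score of these markers as a covariate, Sod3 was at 2.31 (adjusted p = 0.0156). Prdx1, at 0.62 (0.126), Prdx4, at 1.05 (0.158), and Prdx6, at -0.47 (0.341), were no longer called, while 131 genes were called over all. With the first digits of the mouse numbers as a covariate, since these differed between the groups, the 4 genes kept their calls, at 2.04, 0.80, 1.28 and -0.95 for Sod3, Prdx1, Prdx4 and Prdx6 (adjusted p-values of 0.00661 to 0.0495). NCT libraries 1, 2, 3 and 4 and the lesion of mouse 1 were in series that held 1 group only, so they could not inform this contrast. It rested on NCT libraries 5, 6, 7, 8 and 9, of which 5, 8 and 9 had high Pth or Lipf. For the mouse of NCT library 4 the number in the title differs from that in the mouse label, which was used here. The number of the title puts it in the series of mouse 1. With that number the 4 genes were at 1.96, 0.81, 1.28 and -0.86 (adjusted p-values of 0.00231 to 0.0204). In females alone Prdx1, at 0.58 (0.0763), and Prdx4, at 0.99 (0.0899), did not pass. Of other cell type markers, 5 of 5 tested airway and squamous genes, 5 of 7 C cell genes and 3 of 6 fibroblast genes were called lower than in NCT. Another C cell gene, Calcb, was called higher, with a mean of 1.16 CPM in NCT and 19.1 CPM in PL. The 6 fibroblast genes summed to 1738 to 2844 CPM in NCT and 552 to 3046 CPM in PL, and none was at 0 in every library of a group. The part of these cell types in the 4 calls against NCT was not tested.

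**Figure D5:**
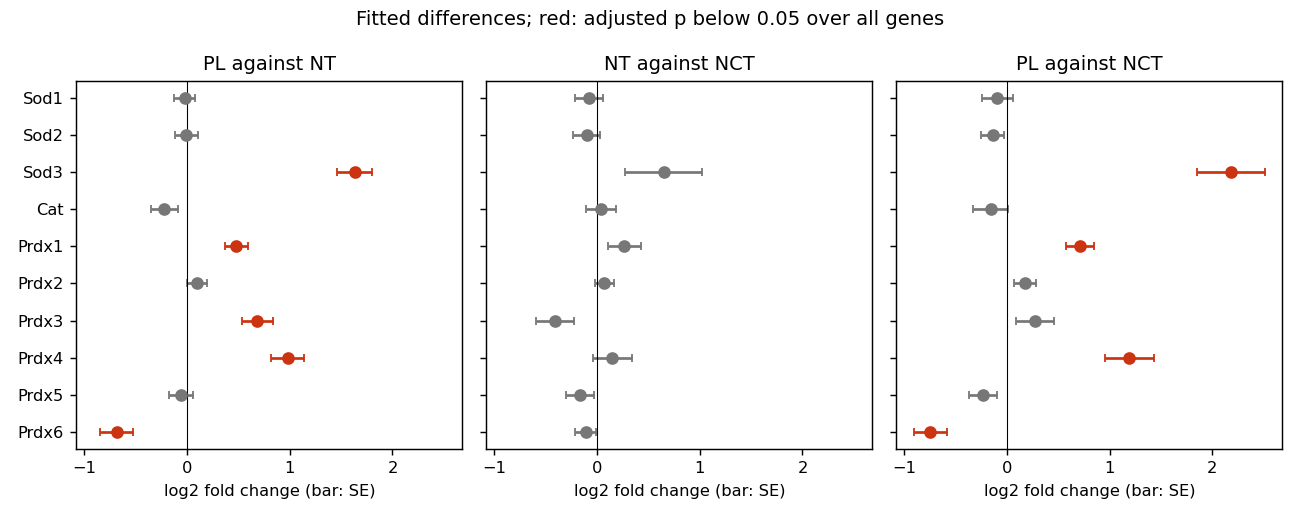
Fitted log2 fold change with its SE (bar) of the 10 genes in each of the 3 comparisons, with red for an adjusted p below 0.05 over all genes tested. Sod3, Prdx1, Prdx4 and Prdx6 are red in PL against NT and in PL against NCT, Prdx3 in PL against NT, and none is red in NT against NCT.

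Thioredoxin, its reductases and sulfiredoxin keep peroxiredoxins reduced, and the sestrins were listed with them. For this and the following lists, 1.76% of all genes tested were called higher and 1.31% lower in PL against NT. The shares were 5.45% and 4.62% in PL against NCT. Of the 10 genes of this list 0 were called in any of the 3 comparisons, and the median log2 fold change was 0.07 in PL against NT and -0.18 in PL against NCT. Sesn2, a sestrin induced by stress, had the smallest p in PL against NT with a log2 fold change of -0.55 (adjusted p = 0.0723). Txn1, the cytosolic thioredoxin, was at 529 ± 202 in NCT, 416 ± 181 in NT and 436 ± 127 CPM in PL.

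Glutathione synthesis and the glutathione peroxidases are the other route of peroxide removal. In PL against NT 0 of 10 were called. In PL against NCT 1 was higher and 1 lower. Slc7a11, the cystine importer that feeds glutathione synthesis, had a log2 fold change of 2.73 (SE 0.69, adjusted p = 0.0167), from low levels of 0.339 to 9.15 CPM in NCT to 3.57 to 98.5 CPM in PL. Gpx4, which reduces lipid peroxides, was at -0.43 (SE 0.14, adjusted p = 0.0487), a call that held in 3 of 18 fits that left out 1 library.

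Copper delivery serves Sod1 and Sod3, which need copper in the active site. Of 5 tested genes 0 were called in PL against NT and 1 was lower in PL against NCT, the copper transporter Slc31a2, at -0.55 (SE 0.18, adjusted p = 0.0479). That call held in 4 of 18 fits that left out 1 library. Ccs, the copper chaperone of Sod1, was at -0.24 (adjusted p = 0.542) in PL against NT.

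The makers and users of hydrogen peroxide were tested as a list of 11 genes. In PL against NT, 2 of 9 tested genes were lower and 0 higher: Xdh, xanthine dehydrogenase, at -0.79 (SE 0.17, adjusted p = 0.027), and Duoxa1 at -1.54 (SE 0.40, adjusted p = 0.0491), whose product helps Duox1 to reach the cell surface. Duoxa1 was low throughout, with a highest value of 26.7 CPM in any library. When 1 mouse at a time was left out, Xdh was called in 4 of 9 fits and Duoxa1 in 2. In PL against NCT, 4 of 10 were higher and 0 lower, against 5.45% and 4.62% of all genes tested. Among them, Cyba, the membrane subunit of NADPH oxidases, was at 0.98 (SE 0.15, adjusted p = 0.000261), Duoxa2, the maturation factor of Duox2, at 0.91 (SE 0.25, adjusted p = 0.0196) and Rac1, a small GTPase that activates these oxidases, at 0.38 (SE 0.096, adjusted p = 0.0116).

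NRF2 is the transcription factor that induces many antioxidant genes, and its regulators and targets gave 0 of 12 called in PL against NT and in NT against NCT. Against NCT the lesions had 1 higher and 1 lower, both enzymes of the pentose phosphate pathway: Pgd at 0.47 (SE 0.13, adjusted p = 0.0218) and Tkt at -0.74 (SE 0.16, adjusted p = 0.00495). This list did not hold Prdx1 or Slc7a11, which are given above and were called higher in PL against NCT.

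Oxidative protein folding in the endoplasmic reticulum is the pathway in which Prdx4 works. Of 13 genes 4 were higher and 1 lower in PL against NT, and 11 had a positive log2 fold change, with a median of 0.42. Among all genes tested 1.76% were called higher and 1.31% lower. Txndc12, Erp29, Pdia3 and Pdia6, all members of the protein disulfide isomerase family, were the 4 higher genes, at 0.63, 0.48, 0.57 and 0.60 (adjusted p-values of 0.0343 to 0.0496). Each was higher in 8 of 9 mice. Gpx8, a peroxidase of the same compartment, was lower at -0.69 (SE 0.15, adjusted p = 0.0244), in 9 of 9 mice. Of the 9 fits that left out 1 mouse, Txndc12 was called in 2, Erp29 in 3, Pdia3 in 1, Pdia6 in 3 and Gpx8 in 6. In PL against NCT 6 were higher and 2 lower, against 5.45% and 4.62% of all genes tested. P4hb, the archetypal disulfide isomerase, was at 0.62 (SE 0.12, adjusted p = 0.00156), with 246 to 441 CPM in NCT and 397 to 650 CPM in PL. Pdia4 was at 0.66 (SE 0.14, adjusted p = 0.00345), and the other 4 higher genes were those of the paired comparison. The lower pair was Gpx8, at -0.63 (SE 0.18, adjusted p = 0.024), and Qsox1, a secreted sulfhydryl oxidase, at -1.16 (SE 0.31, adjusted p = 0.0235). Without NCT library 1, Gpx8 had an adjusted p of 0.0585.

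Promoters were compared for 8 of the 10 genes with an entry in the RefSeq table of GRCm38.p6, in which Sod3 and Prdx6 had none. The letters TGACNNNGC, the core of the antioxidant response element that NRF2 binds, were searched on both strands from 250 bases before to 50 after the start. They occurred in 2 of 8, Prdx1 and Sod1, against 12.4% of 32851 promoters. Those 2 are shown without the bases that lie in exons, with the match in capitals, for a gene that was called and a gene that was not. Prdx1 is chr4:116685349-116685543 and Sod1 is chr16:90220512-90220753, both on the plus strand.
Prdx1 promoter: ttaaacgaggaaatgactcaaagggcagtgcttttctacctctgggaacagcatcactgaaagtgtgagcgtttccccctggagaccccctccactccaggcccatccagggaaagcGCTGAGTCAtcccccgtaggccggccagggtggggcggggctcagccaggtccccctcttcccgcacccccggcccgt
Sod1 promoter: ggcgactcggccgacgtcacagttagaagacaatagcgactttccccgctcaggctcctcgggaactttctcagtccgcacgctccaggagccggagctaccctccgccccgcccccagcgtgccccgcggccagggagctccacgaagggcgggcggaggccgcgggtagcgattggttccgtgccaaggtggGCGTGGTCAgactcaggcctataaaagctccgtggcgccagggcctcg

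The endoplasmic reticulum stress response element (ERSE, 19 letters in its consensus, both strands) occurred in 0 of 8, Prdx4 included, and in 0.119% of all promoters. These matches describe the letters in the windows only.

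Genes with the most similar profile were ranked by the Pearson correlation of log2 CPM over the 27 libraries among 8705 genes with a mean of at least 10 CPM. The libraries share groups, mice and captured tissue, so these are descriptions, with the value after removing the group means in parentheses. For Sod3 they included Moxd1 at 0.955 (0.901), Scg5 at 0.936 (0.855), Bsg at 0.929 (0.845) and Tshr at 0.924 (0.837). Tshr is the receptor of thyrotropin, the pituitary hormone that drives follicular cells. It had 37.9 to 120 CPM in NCT, 25.1 to 152 CPM in NT and 127 to 359 CPM in PL, and passed in PL against NT at 1.40 (SE 0.23, adjusted p = 0.0117), higher in 9 of 9 mice. Prdx1 had Atp6v0e at 0.905 (0.845) first and shared Tshr, at 0.896 (0.834), and Bsg, at 0.880 (0.788), with Sod3, beside Vmp1 and Lamp2.

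Prdx4 was most like Fem1c, at 0.881 (0.740), and Ssr1, a subunit of the translocon-associated protein complex of the endoplasmic reticulum, at 0.879 (0.737), before Rpl15, Lsr and Khk. Prdx3 was most like Ccn2, a secreted matrix protein, at 0.876 (0.867), then Mcfd2, Fh1, Sat1 and Plac8, at 0.862 to 0.821. The list for Prdx6 was Foxn3, Rai2, Cpe, Ptgds and Scnn1a, at 0.860 to 0.845. Cat had lower values, led by S100a13 at 0.771 (0.764), then AI464131, Ndufa13, Gas2l1 and Gng11. None of the 30 pairs joined 2 of the 10 enzymes. Only the few most similar genes were kept for each enzyme, so these lists cannot show whether the enzymes vary together. That was not tested.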

How the data were processed

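QuantSeq libraries of transcript 3′ ends were made from laser-captured mouse thyroid, per the labels' protocols. The authors deposited raw counts per gene, with no normalization. STAR, featureCounts, DESeq2 and the build GRCm38 are named without versions, per the submitters' processing notes. The sources used here do not give the annotation, the strand setting or any use of molecular identifiers. Names and places of 54409 of 54532 rows came from GENCODE M21, and the 123 other rows held 0.0251% of counts.

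Groups and the pairing of NT with PL by mouse number came from the labels. Each group held 9 libraries of different mice, and the lowest chi-square per degree of freedom between libraries of a group was 13.2. Deviations from the group means of paired libraries correlated at -0.0162 to 0.212 (mean 0.13). Levels are counts scaled to library size (CPM) with TMM factors over 27 libraries, and log2 CPM used a prior count of 2. Each comparison was fitted over all genes kept by filterByExpr (minimum count 10) in edgeR 4.0.16 (R 4.3.3, quasi-likelihood test, robust) with Benjamini-Hochberg adjustment at 0.05, on the 18 libraries compared. PL against NT had the mouse as a block. The standard error (SE) is an approximation, the log2 fold change over the root of its F value. The fits were also run on simulated counts, with no mouse effect and with larger fold changes than those of the called enzymes in PL against NT. That run checked the code and does not test those calls.

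Alternatives were other scaling factors, other filters, the Wald test of DESeq2 1.42.0, females only, left-out libraries and added covariates. The fits without mice high in Bpifa1 and with the number series of the titles were chosen after seeing the data. The members, the gene lists and the tests were chosen with earlier results of these data known. Named beside the 10 genes are up to 4 genes per pathway list that passed in any comparison, by smallest p, or else the gene with the smallest p in PL against NT. Also named are the 5 genes most like each called gene and Cat. Duoxa1, Duoxa2, Pdia3, Pdia6, Gpx8, Qsox1, Txn1 and Ccs were named after their values were seen. Some genes that this rule names are not reported here.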

Additional observations from a re-analysis of the deposited data

Results flagged for a closer look

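Among 30 tests of the 10 genes in 3 groups of 9 libraries, 2 had a library that stood apart by Dixon's criterion, where chance flags about 1 in 20. Sod1 was at 587.2 CPM in the NT library of mouse 9, and the next lowest NT library had 945.1 CPM, a gap of 0.573 of the range. That library also held 25710 CPM of Pth. Cat was at 110 CPM in NCT library 9, and the next highest NCT library had 77.06 CPM, a gap of 0.522 of the range. That library also held 9792 CPM of Lipf. The part of the other tissue in both values was not tested.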

How the results depend on the processing

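Sod3 and Prdx4 kept direction and call in 17 of 18 alternatives of PL against NT, Prdx3 in 10, and Prdx1 and Prdx6 in 8 each, with the direction the same in all 18. PL against NT called 445 genes and 5 of the 10 enzymes. With the pairing dropped (no replicate block) 402 genes and 3 enzymes were called. Genes called were 832 with no filter, 1285 with DESeq2's Wald test, 6 in females only, 95 without mice high in Pth or Lipf, 46 without mice high in Bpifa1 and 137 to 529 with 1 mouse left out. The enzymes called were 1 in females, 2 without the Pth or Lipf mice, 2 without the Bpifa1 mice and 2 to 5 with 1 mouse left out (2 without mouse 3, 4, 7 or 8). Of NT against NCT, 4 genes became 15 with no filter, 134 with DESeq2, 1 in females, 0 without the Pth or Lipf mice, 1 with the number series as a covariate (13 with that of the titles), 0 with the adipocyte score and 0 to 12 with 1 library left out (12 without NCT 7, 0 without NT 4 or 6). Of PL against NCT, 1433 genes became 450 in females, 787 without the Pth or Lipf mice, 464 with the number series (700 with that of the titles) and 131 with the adipocyte score, and 4 enzymes became 2 in females and 1 with the adipocyte score. The fits in females and without mice have fewer samples, and the cause of the shifts was not tested.

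Signs turned for small values that were not called. In PL against NT these were Sod2 at 0.019 and Prdx5 at 0.0668 without the Bpifa1 mice. With 1 mouse left out Sod1 ranged from -0.0531 to 0.0397, Sod2 from -0.0529 to 0.0496 and Prdx5 from -0.12 to 0.017. In NT against NCT, Sod1 was at 0.0558 with the number series (0.0616 with that of the titles) and -0.118 to 0.00662 with 1 library left out, Sod2 at 0.014 without the Pth or Lipf mice and 0.0773 with the adipocyte score, and Cat at -0.0849 with the number series and -0.0205 to 0.145 with 1 library left out. In PL against NCT, Sod1 was at 0.0233 with the series of the titles, Sod2 at 0.0834 with the adipocyte score, Cat at 0.167 in females, 0.16 without the Pth or Lipf mice and 0.318 with the adipocyte score, and Duoxa1 at 0.398 with that score. Without the Pth or Lipf mice, calls of PL against NCT were lost for Slc7a11, Gpx4, Slc31a2, Rac1, Tkt, Pdia4, Duoxa2, Pdia3, Pdia6, Gpx8 and Qsox1. The lowest count in a library was 81 for Prdx4 and 93 for Prdx3.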
